A study of Homo sapiens with 8 samples.

Results

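The genes described here are 36 human genes of the endoplasmic reticulum (ER) protein folding system and its stress response, the unfolded protein response. They were taken by gene symbol from the deposited table of 57992 genes, and all 36 had a row of their own and enough counts to be tested. By role, 5 are stress sensors and transcription factors, 15 are chaperones and folding enzymes, 9 belong to ER-associated degradation, and 7 belong to the translocon or to export from the ER.

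Messenger RNA was sequenced from KG1A and U937, 2 established human cell lines that the labels call acute myeloid leukaemia lines. Each line was given 10 mM dG, an agent that the labels do not spell out, or the PBS vehicle. The 4 groups were therefore KG1A in PBS, KG1A in dG, U937 in PBS and U937 in dG, with 2 libraries each and 8 in all. No duration of treatment is stated in the labels, and all 4 groups were grown in RPMI medium with dialysed serum. Nothing in the labels says that the 2 libraries of a group came from separate cultures. The p-values rest on the spread between these libraries, pooled largely over genes, and that spread may be technical. Each line comes from 1 donor, and the line cannot be told apart from any other unlabelled difference between the KG1A and U937 cultures. The study's title concerns dNTP balance and the differentiation block of acute myeloid leukaemia; the comparison here asks how the folding genes stood after dG in each line.

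Proteins that enter the ER pass through the SEC61 channel, are folded by chaperones such as BiP (HSPA5) and calreticulin, and are oxidised by protein disulfide isomerases. Proteins that fail to fold are drawn back to the cytosol, marked with ubiquitin by the HRD1 ligase (SYVN1) and degraded. When unfolded proteins build up, the sensors IRE1 (ERN1), PERK (EIF2AK3) and ATF6 are released from BiP. IRE1 then splices XBP1 mRNA, PERK slows translation, and cleaved ATF6 and spliced XBP1 raise chaperone and degradation genes through short promoter elements. Sensor activity, XBP1 splicing and ATF6 cleavage are not read by counts per gene, which measure mRNA amount alone.

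One such element is the ER stress element (ERSE), CCAAT and CCACG with 9 free bases between them, and a shorter form is ERSE-II, ATTGG and CCACG with 1 free base between them. The 6 stretches that follow hold exact copies of these elements upstream of the start sites of members. HSP90B1, PDIA6, XBP1 and CANX hold copies too, but their stretches overlap exons of their own genes and are not shown. They come from RefSeq promoter windows on GRCh38.p14, are written 5′ to 3′ on the gene's own strand, and have the fixed letters of the element in capitals. None lies in an exon of its gene. The HSPA5 stretch is at chr9:125241379-125241421 on the minus strand, the CALR stretch at chr19:12938372-12938414 on the plus strand, and the HYOU1 stretch, with 2 copies of ERSE-II, at chr11:119057262-119057402 on the minus strand. The HERPUD1 stretch is at chr16:56932013-56932047, the SDF2L1 stretch at chr22:21642102-21642136 and the CRELD2 stretch at chr22:49918542-49918584, all on the plus strand. The CRELD2 stretch is within the annotated span of its gene, and the other 5 are upstream of theirs.
HSPA5: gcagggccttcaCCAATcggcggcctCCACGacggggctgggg
CALR: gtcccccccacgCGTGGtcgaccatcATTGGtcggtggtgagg
HYOU1: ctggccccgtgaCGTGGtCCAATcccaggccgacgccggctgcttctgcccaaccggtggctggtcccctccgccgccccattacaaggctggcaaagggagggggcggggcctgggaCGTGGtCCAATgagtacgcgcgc
HERPUD1: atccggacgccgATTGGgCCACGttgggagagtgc
SDF2L1: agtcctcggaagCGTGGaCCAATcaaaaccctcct
CRELD2: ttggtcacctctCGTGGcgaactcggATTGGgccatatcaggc
In HSPA5 and HERPUD1 the element reads along the gene's strand, and in the other 4 it lies on the opposite strand.

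The libraries held 21053724 to 31135338 counts in genes. Levels are given as CPM, each gene's counts relative to its library's total, adjusted by the TMM factor, and changes as log2 fold changes with their standard errors from edgeR's quasi-likelihood test. A gene is called when its p-value, adjusted by Benjamini-Hochberg over 18314 genes, is under 0.05. The sums of the marker genes matched the labels. The 3 KG1A markers summed to 970 to 975 CPM in KG1A PBS and 0.471 to 0.478 CPM in U937 PBS, and the 6 U937 markers to 476 to 477 CPM in U937 PBS and 0.0867 to 0.205 CPM in KG1A PBS, although MPO was near 0 throughout. CD34 made up most of the KG1A sum (932 and 931 CPM in KG1A PBS), where PROM1 was at 0.607 and 0.684 CPM. CSF1R was at 1.38 and 1.87 CPM in U937 PBS. All 3 erythroid markers were at 0 in every library. With dG the sum was 1237 to 1244 CPM for the KG1A markers in KG1A and 760 to 770 CPM for the U937 markers in U937, where LYZ (24.7 and 22.7 to 225 and 219 CPM) and AZU1 (146 and 158 to 331 and 335 CPM) were higher but PRTN3 was lower (203 and 191 to 99.9 and 93.8 CPM). The lymphoid gene CD3E went from 10.5 and 11 to 21.8 and 21 CPM in KG1A, and COL1A1 went from 1.26 and 1.36 to 4.57 and 4.22 CPM in U937. Genes of the mitochondrial genome took 9.12 to 9.83% of counts in PBS and 7.93 to 8.30% in dG. The part of these shifts in the results on the folding genes was not tested. In GENCODE 29, EIF2AK3, DNAJB11, PDIA3, PDIA6, SYVN1 and DERL3 share more than 10% of their exon bases with other genes, and XBP1, PDIA3 and SSR1 have pseudogene copies, so reads of these 8 genes may be shared.

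In PBS, CALR was the most abundant of the 36 mRNAs per length in both lines, but the lines differed widely in XBP1, ATF6, CREB3L2 and P4HB. Levels of different genes are compared here on the authors' deposited RPKM scale, which divides by exon length. CALR, the lectin chaperone calreticulin, was at 525 and 541 RPKM in KG1A and 523 and 517 RPKM in U937. ERN1 was the lowest in KG1A, at 0.547 and 0.516 RPKM, and in U937 DERL3 and ERN1 were the lowest pair, with means of 1.20 and 1.22 RPKM. XBP1, the transcription factor made active by IRE1, had rank 2 in KG1A at 308 and 311 RPKM and rank 10 in U937 at 50.6 and 51.3 RPKM. The opposite was seen for P4HB, a protein disulfide isomerase, at 70.3 and 71.5 RPKM in KG1A and 361 and 355 RPKM in U937.

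**Figure D1:**
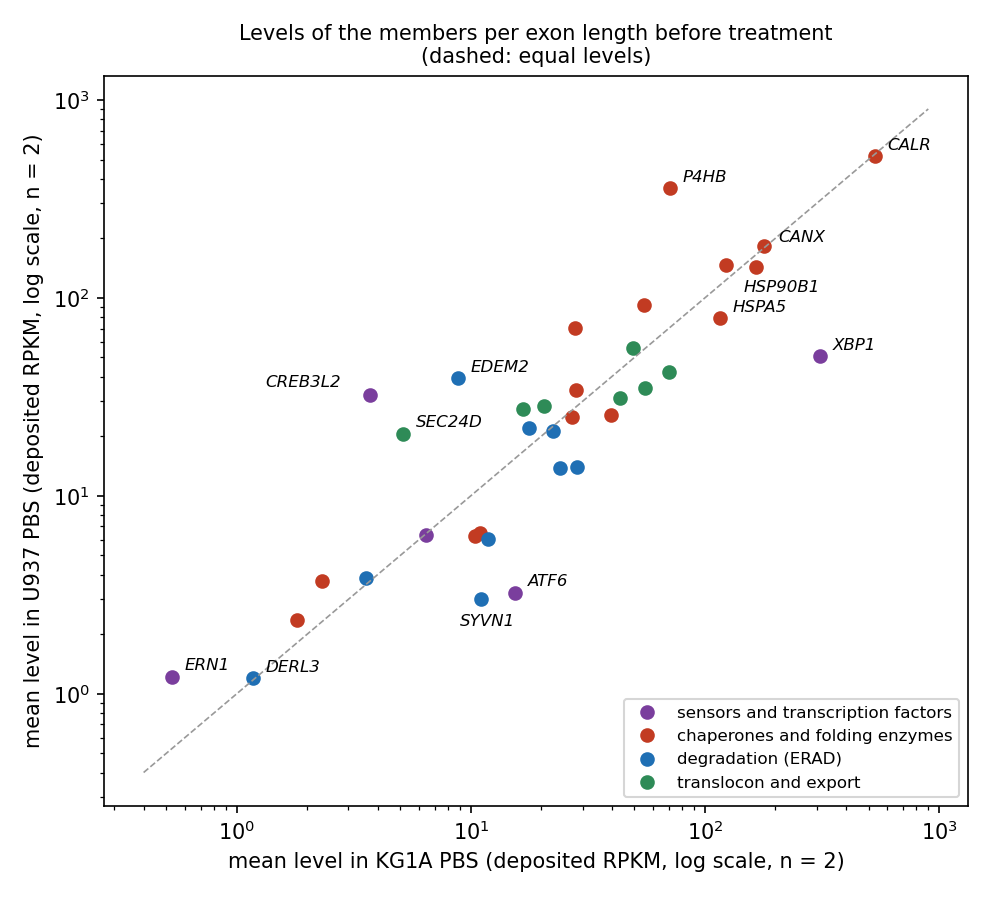
Mean level of each of the 36 genes in KG1A PBS (horizontal) and U937 PBS (vertical), in the authors' deposited RPKM on log scales, n = 2 libraries a line, coloured by role. CALR is highest on both axes, XBP1, ATF6 and SYVN1 lie well below the dashed line of equal levels, and CREB3L2, P4HB, EDEM2 and SEC24D lie well above it.

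Between the lines in PBS, 17 of the 36 genes were higher in U937, 14 were lower and 5 were not called, against 82.3% of all genes called, 41.4% as higher and 40.8% as lower. The largest differences on the log2 CPM scale were in CREB3L2 (3.17 ± 0.05, 9.0-fold higher in U937), P4HB (2.38 ± 0.03), EDEM2 (2.18 ± 0.06) and SEC24D (2.05 ± 0.04), and on the lower side in XBP1 (-2.56 ± 0.03, 5.89-fold), ATF6 (-2.20 ± 0.05, 4.60-fold) and SYVN1 (-1.82 ± 0.06). At least 1.5-fold differences were seen in 9 genes toward U937 and 11 toward KG1A, against 30.1% and 29.4% of all genes (59.5% in all). Of the 3 sensors, ERN1 was higher in U937 by 1.25 ± 0.10, ATF6 was lower, and EIF2AK3 was not called (0.02 ± 0.06, adjusted p = 0.702). In PBS, U937 thus had more ERN1 mRNA and less XBP1 and ATF6 mRNA than KG1A. HSPA5 and HSP90B1 were lower in U937 by 0.50 ± 0.03 and 0.17 ± 0.03. The calls of CANX and DERL2 as higher in U937 (0.08 ± 0.03 and 0.16 ± 0.07) were lost under 6 and 8 of 16 alternatives. Without replicate 2 of KG1A PBS or replicate 1 of U937 PBS, CANX had adjusted p = 0.0882 and 0.172, and without replicate 1 of KG1A PBS, replicate 1 of U937 PBS or replicate 2 of U937 PBS, DERL2 had adjusted p = 0.224, 0.05003 and 0.0911.

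The response to dG went opposite ways in the 2 lines for most of the chaperones. In U937, 31 of the 36 genes rose and 0 fell, while 64.0% of all genes were called there, 32.4% as higher and 31.5% as lower. In KG1A, 12 rose, 17 fell and 7 were not called, while 49.1% of all genes were called, 29.6% as higher and 19.6% as lower. On log2 RPKM with limma the KG1A split was 8 higher and 18 lower, and without the filter on low counts as well it was 6 and 17. The median log2 fold change of the 36 genes was 0.51 in U937 (0.00 over all genes) and -0.05 in KG1A (0.04 over all genes). At an unadjusted p under 0.05, edgeR found 31 higher and 0 lower in U937, and the DESeq2 Wald test found 33 and 0. With scaling by library size alone, 1 gene, EDEM1, was called lower in U937 (-0.09, adjusted p = 0.0436).

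Size differed as well as direction, but among all genes too more reached 1.5-fold in U937 than in KG1A. In U937, 14 of the 36 genes rose by at least 1.5-fold, against 17.5% of all genes, and none fell by that much, against 16.0%. The 1.5-fold size was reached in either direction by 33.5% of all genes in U937 and 15.7% in KG1A. In KG1A, CREB3L2 and EDEM1 rose and HSPA5 and SDF2L1 fell by at least 1.5-fold, against 11.5% of all genes on the higher and 4.20% on the lower side. Both U937 dG libraries were above both PBS libraries for 32 of the 36 genes and below for 0, against 39.2% and 39.8% of all genes. In KG1A the same held for 14 above and 18 below, against 40.6% and 29.6%. P4HB, DERL1, DERL2 and SSR1 overlapped between treatments in KG1A, and ATF6, CREB3L2, EDEM1 and DERL3 in U937.

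**Figure D2:**
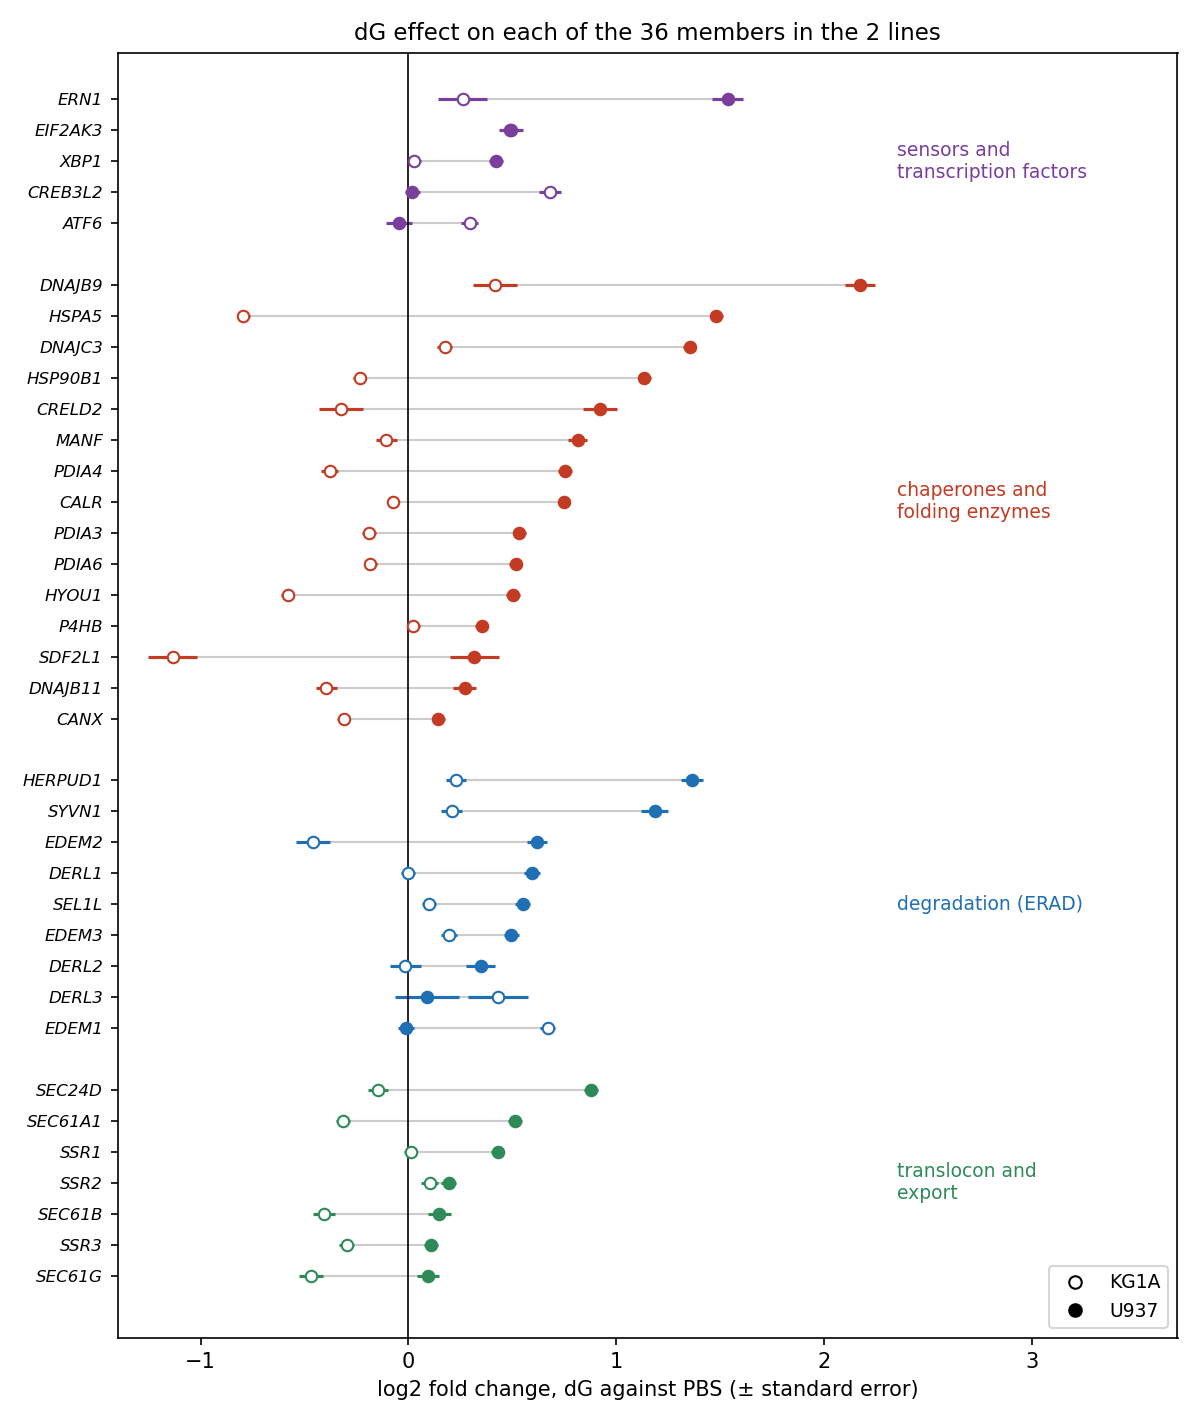
Log2 fold change of dG against PBS for each of the 36 genes, grouped by role, with KG1A as open and U937 as filled circles and bars of 1 standard error. Filled circles of the 15 chaperones are all right of 0, and open circles of HSPA5, HYOU1 and SDF2L1 are the farthest left among them.

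Among the sensors and transcription factors, 3 of 5 rose in each line and 0 fell, against 29.6% higher and 19.6% lower of all genes in KG1A and 32.4% and 31.5% in U937. EIF2AK3 was among the 3 in both lines, with ATF6 and CREB3L2 in KG1A and with ERN1 and XBP1 in U937. ERN1, which encodes the kinase and RNase IRE1, stood at 14.1 and 12.9 CPM in U937 PBS and at 39.6 and 38.8 CPM in U937 dG. It rose 2.90-fold there (log2 1.54 ± 0.07, adjusted p = 7.37e-20). In KG1A it stood at 5.85 and 5.51 CPM in PBS and 7.04 and 6.50 CPM in dG, 0.26 ± 0.12 on the log2 scale (adjusted p = 0.0663). The dG libraries were above the PBS libraries in both lines, but the KG1A difference was not called.

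EIF2AK3, which encodes the kinase PERK, moved alike in both lines. It went from 34.6 and 34.0 to 47.7 and 48.6 CPM in KG1A and from 34.3 and 35.5 to 50.1 and 48.0 CPM in U937. The log2 changes were 0.49 ± 0.05 and 0.49 ± 0.06 (adjusted p = 1.34e-09 and 6.09e-10), and the difference between the lines was 0.00 ± 0.08 (adjusted p = 1). EIF2AK3 was the member with the closest effects in the 2 lines, and both its PBS levels and its dG levels lay within a few CPM of each other.

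ATF6, the membrane-bound transcription factor, rose in KG1A from 121 and 119 to 144 and 150 CPM (0.29 ± 0.04, adjusted p = 9.53e-08). In U937 it was at 26.8 and 25.2 CPM in PBS and 25.0 and 25.6 CPM in dG (-0.04 ± 0.06, adjusted p = 0.562), so its groups overlapped. The difference between the lines, -0.34 ± 0.07, was called (adjusted p = 0.000249), but not without replicate 1 of U937 dG (-0.19, adjusted p = 0.10). CREB3L2, a related factor cleaved in the Golgi, had the same form. It went from 31.9 and 32.0 to 50.7 and 51.9 CPM in KG1A, a rise of 0.68 ± 0.05 (1.60-fold, adjusted p = 2.89e-13). In U937 it was already at 299 and 275 CPM in PBS and stood at 287 and 296 CPM in dG (0.02 ± 0.04, adjusted p = 0.678). Scaling by DESeq2's size factors called CREB3L2 higher in U937 (0.11, adjusted p = 0.0115), with a smaller effect than in KG1A.

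XBP1 showed the reverse. Its KG1A levels were 919 and 924 CPM in PBS and 950 and 929 CPM in dG, a difference of 0.03 ± 0.03 (adjusted p = 0.496). In U937 it rose from 154 and 159 to 216 and 203 CPM (0.42 ± 0.04, adjusted p = 4.51e-13). Even in dG, U937 remained far under either KG1A group. These counts join the spliced and unspliced forms.

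All 15 chaperones and folding enzymes rose in U937, whereas 11 fell, 2 rose and 2 were not called in KG1A. Their median log2 changes were 0.75 and -0.24, and the shares of all genes were 32.4% higher in U937 and 19.6% lower in KG1A. The effect in U937 exceeded that in KG1A in 15 of 15, each with a called difference, and the median difference was 1.08 against -0.10 over all genes. By comparison, 17.6% of all genes were called with a higher and 26.4% with a lower effect in U937.

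HSPA5 encodes BiP, the ER Hsp70 that holds unfolded chains and restrains the sensors. The gene (ENSG00000044574) lies on the minus strand of chromosome 9, from 125234853 to 125241330 in the build of the files (hg38). It was at 443 and 448 CPM in KG1A PBS, 257 and 257 CPM in KG1A dG, 315 and 315 CPM in U937 PBS and 893 and 865 CPM in U937 dG. It fell 1.73-fold in KG1A (-0.79 ± 0.03, adjusted p = 1.45e-21) and rose 2.79-fold in U937 (1.48 ± 0.03, adjusted p = 6.44e-31). No library of 1 treatment reached a library of the other within a line. Although U937 had less HSPA5 mRNA than KG1A in PBS, after dG it had the more. The difference of 2.28 ± 0.04 between the lines was the largest among the 36 genes.

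HSP90B1, the ER Hsp90 known as GRP94, followed the same course at a higher level. It went from 767 and 762 to 641 and 658 CPM in KG1A (-0.24 ± 0.03, adjusted p = 2.23e-08) and from 679 and 680 to 1525 and 1458 CPM in U937 (1.13 ± 0.03, adjusted p = 7.11e-28). HYOU1, an Hsp110-type partner of BiP, went from 305 and 298 to 203 and 200 CPM in KG1A and from 202 and 199 to 285 and 283 CPM in U937. These were changes of -0.58 ± 0.03 and 0.50 ± 0.03 (adjusted p = 3.95e-17 and 8.37e-16). In dG, each line was near the HYOU1 level of the other line in PBS.

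The co-chaperones of BiP did not move as 1 group. DNAJB9 (ERdj4), which binds misfolded proteins and IRE1, went from 6.55 and 6.36 to 8.67 and 8.52 CPM in KG1A and from 10.5 and 10.9 to 49.0 and 47.2 CPM in U937. That was a rise of 1.33-fold (0.42 ± 0.11, adjusted p = 0.00123) and of 4.50-fold (2.17 ± 0.07, adjusted p = 1.27e-24), the largest of the 36 in U937. DNAJC3 (p58IPK), an inhibitor of PERK and a co-chaperone, went from 158 and 152 to 173 and 176 CPM in KG1A and from 195 and 193 to 500 and 493 CPM in U937 (0.17 ± 0.04 and 1.35 ± 0.03, adjusted p = 7.95e-05 and 9.23e-29). DNAJB9 and DNAJC3 were the only chaperones called higher in KG1A. The KG1A call of DNAJC3 was lost on log2 RPKM without a filter (0.10, adjusted p = 0.0508).

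DNAJB11 (ERdj3), another J-domain partner of BiP, went the other way in KG1A, from 61.7 and 61.6 to 47.4 and 46.3 CPM (-0.40 ± 0.05), and rose in U937 from 36.2 and 39.3 to 45.1 and 45.7 CPM (0.27 ± 0.06). SDF2L1, which works with DNAJB11, had the largest fall in KG1A, from 10.8 and 11.7 to 5.55 and 4.68 CPM, or 2.20-fold (-1.13 ± 0.12, adjusted p = 2.01e-10). In U937 it stood at 6.94 and 7.1 CPM in PBS and at 8.02 and 9.51 CPM in dG (0.32 ± 0.12, adjusted p = 0.0183). That U937 call was lost with scaling by library size alone (0.24, adjusted p = 0.0736), without replicate 1 of U937 PBS (0.29, adjusted p = 0.0850), without replicate 2 of U937 PBS (0.32, adjusted p = 0.0507) and without replicate 2 of U937 dG (0.26, adjusted p = 0.128).

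**Figure D3:**
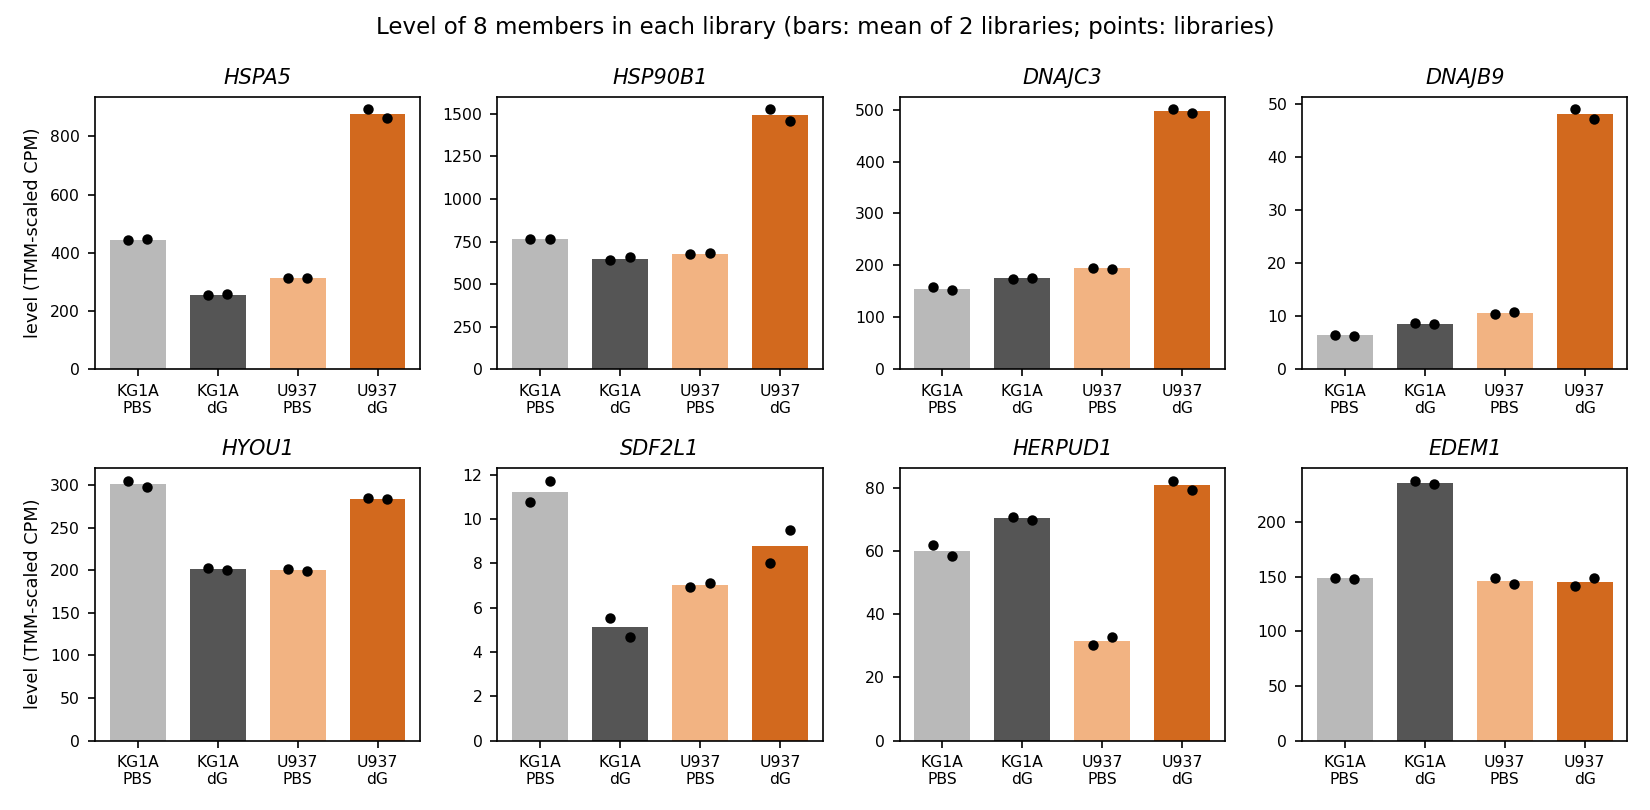
Level of 8 of the genes in TMM-scaled CPM (vertical, from 0) in the 4 groups, with bars at the mean of 2 libraries and points for the libraries. HSPA5, HSP90B1 and HYOU1 are lower in dG than in PBS in KG1A and higher in U937, DNAJB9, DNAJC3 and HERPUD1 are higher in both, and EDEM1 is higher in KG1A dG alone.

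The lectin chaperones, CALR and CANX, hold glycoproteins during folding. CALR went from 1404 and 1443 to 1372 and 1328 CPM in KG1A, a 1.05-fold fall (-0.08 ± 0.03, adjusted p = 0.0250), and from 1430 and 1434 to 2446 and 2369 CPM in U937, a 1.68-fold rise (0.75 ± 0.03, adjusted p = 5.71e-23). The fall in KG1A was lost without replicate 2 of KG1A PBS (-0.06, adjusted p = 0.232), without replicate 2 of KG1A dG (-0.05, adjusted p = 0.223) and on log2 RPKM without a filter (adjusted p = 0.0728). CANX, the membrane-bound counterpart calnexin, went from 1101 and 1093 to 883 and 883 CPM in KG1A and from 1180 and 1135 to 1299 and 1259 CPM in U937 (-0.31 ± 0.03 and 0.14 ± 0.03).

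The 4 protein disulfide isomerases, which form and rearrange disulfide bonds, rose in U937, and 3 of them fell in KG1A. PDIA4 moved most, from 88.1 and 92.0 to 69.1 and 69.6 CPM in KG1A (-0.38 ± 0.04) and from 233 and 233 to 396 and 391 CPM in U937 (0.75 ± 0.03). PDIA3 changed by -0.19 ± 0.03 and 0.53 ± 0.03, and PDIA6 by -0.18 ± 0.03 and 0.52 ± 0.03. P4HB overlapped in KG1A, at 368 and 372 CPM in PBS and 388 and 364 CPM in dG (0.02 ± 0.03, adjusted p = 0.602), and rose in U937 from 1929 and 1922 to 2508 and 2406 CPM (0.35 ± 0.03).

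MANF and CRELD2 are small ER proteins that are known to be secreted under ER stress. MANF was at 55.8 and 56.8 CPM in KG1A PBS and 53.7 and 50.8 CPM in KG1A dG (-0.11 ± 0.05, adjusted p = 0.0743), and rose in U937 from 53.8 and 53.1 to 96.6 and 91.3 CPM (0.81 ± 0.05). MANF was called lower in KG1A under 10 of the 17 alternatives (adjusted p = 0.00399 to 0.0487). Among them were the fits without replicate 1 of KG1A dG (-0.15) and without either U937 dG library (both -0.17). Leaving out a U937 dG library shifted the KG1A median of all genes by -0.04, as did scaling by library size alone. CRELD2 went from 9.23 and 9.07 to 7.11 and 7.51 CPM in KG1A (-0.32 ± 0.10, adjusted p = 0.00893) and from 12.2 and 12.6 to 23.5 and 23.4 CPM in U937 (0.92 ± 0.08). Its KG1A call was lost without replicate 1 of KG1A dG (-0.28, adjusted p = 0.0798).

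Of the 9 degradation genes, 6 rose, 1 fell and 2 were not called in KG1A (median 0.19), where 29.6% of all genes were called higher and 19.6% lower. In U937, 7 rose, 0 fell and 2 were not called (median 0.55), against 32.4% and 31.5% of all genes. HERPUD1, a scaffold of the HRD1 complex, went from 62.0 and 58.4 to 70.9 and 70.0 CPM in KG1A (0.23 ± 0.05, adjusted p = 0.000137) and from 30.3 and 32.8 to 82.4 and 79.5 CPM in U937 (1.36 ± 0.05, adjusted p = 9.82e-23). SYVN1, the ligase HRD1 itself, went from 57.9 and 61.2 to 71.1 and 66.6 CPM in KG1A (0.21 ± 0.05) and from 16.8 and 17.0 to 37.3 and 39.4 CPM in U937 (1.18 ± 0.07). Its partner SEL1L went from 226 and 226 to 239 and 244 CPM in KG1A (0.10 ± 0.03) and from 133 and 134 to 197 and 194 CPM in U937 (0.55 ± 0.04).

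These core components were higher after dG in both lines, with the larger effect in U937 for each of the 3 (differences of 1.13, 0.98 and 0.45, all called). Some of the KG1A calls were not firm. HERPUD1 lost its call on log2 RPKM without a filter (adjusted p = 0.0636), SYVN1 on all 3 RPKM fits (adjusted p = 0.0661 to 0.104) and SEL1L under 12 of the 17 alternatives (0.03 to 0.10, adjusted p = 0.0707 to 0.741). For SEL1L these included leaving out replicate 1 or replicate 2 of KG1A PBS (adjusted p = 0.0786 and 0.0750), replicate 2 of KG1A dG (adjusted p = 0.106) and replicate 1 or replicate 2 of U937 dG (both 0.03, adjusted p = 0.494 and 0.498).

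The EDEM genes, whose products recognise or trim the sugar chains of misfolded glycoproteins, split 3 ways. EDEM1 rose in KG1A from 149 and 148 to 238 and 235 CPM, or 1.59-fold (0.67 ± 0.04, adjusted p = 8.44e-18), and in U937 was at 149 and 144 CPM in PBS and 142 and 149 CPM in dG (-0.01 ± 0.04, adjusted p = 0.823). EDEM2 fell in KG1A from 15.4 and 18.0 to 12.8 and 11.6 CPM (-0.46 ± 0.08) and rose in U937 from 76.3 and 76.3 to 118 and 116 CPM (0.62 ± 0.05). EDEM3 rose in both, by 0.19 ± 0.04 and 0.49 ± 0.04. The lines had nearly equal EDEM1 levels in PBS, and KG1A alone departed from them in dG. The difference of -0.68 ± 0.05 was called (adjusted p = 1.46e-13).

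The derlins are membrane proteins of the degradation channel. DERL1 and DERL2 rose in U937 (0.59 ± 0.04 and 0.35 ± 0.07), from 101 and 101 to 152 and 153 CPM and from 24.5 and 25.5 to 33.7 and 29.7 CPM. In KG1A they were at 196 and 200 CPM and at 21.6 and 23 CPM in PBS, and at 202 and 194 CPM and at 21.6 and 22.8 CPM in dG, with overlapping groups (adjusted p = 1 and 0.914). DERL3 was at 4.16 and 4.62 CPM in KG1A PBS and 6.51 and 5.33 CPM in KG1A dG (0.43 ± 0.15, adjusted p = 0.0129). It was not called in U937 (0.09 ± 0.15, adjusted p = 0.646). The KG1A call of DERL3 was lost in the DESeq2 Wald test and on RPKM (adjusted p = 0.112 to 0.258), without replicate 1 of KG1A PBS (0.36, adjusted p = 0.0863) and without replicate 1 of KG1A dG (0.27, adjusted p = 0.229). DERL3 shares 77.0% of its exon bases with SMARCB1 on the opposite strand in GENCODE 29, and the strand setting of the counting is not given in the sources used here, so its counts are uncertain.

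The translocon and export genes had the lowest median change of the 4 roles in both lines. In U937, 6 of 7 rose, 0 fell and 1 was not called, with a median of 0.19, while in KG1A 5 fell, 1 rose and 1 was not called, with a median of -0.30. The shares of all genes were 32.4% higher and 31.5% lower in U937, and 29.6% higher and 19.6% lower in KG1A. SEC61A1, the channel subunit, went from 323 and 327 to 270 and 253 CPM in KG1A (-0.31 ± 0.03) and from 201 and 202 to 289 and 285 CPM in U937 (0.51 ± 0.03). The small channel subunits SEC61B and SEC61G went from 62.9 and 66.6 to 50.3 and 47.5 CPM and from 36.9 and 37.8 to 27.6 and 26.4 CPM in KG1A (-0.41 ± 0.05 and -0.47 ± 0.06). In U937, SEC61B was at 43.8 and 41.3 CPM in PBS and 48.3 and 46.1 CPM in dG (0.15 ± 0.06, adjusted p = 0.0197), and SEC61G at 51.9 and 54.3 CPM in PBS and 57.4 and 55.7 CPM in dG (0.09 ± 0.05, adjusted p = 0.11).

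All 3 channel subunits therefore fell in KG1A, and their effects differed between the lines by 0.83 ± 0.05, 0.55 ± 0.08 and 0.56 ± 0.08, all called. In U937 the SEC61B call was lost with library size alone (adjusted p = 0.252) and without replicate 2 of U937 PBS (0.09, adjusted p = 0.236), while SEC61G was called higher under 7 of the 17 alternatives (0.15 to 0.18, adjusted p = 0.00197 to 0.0232), among them without replicate 2 of U937 dG (0.18, adjusted p = 0.0195).

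SSR1, SSR2 and SSR3 encode subunits of the translocon-associated protein complex, which helps chains enter the ER. SSR1 was at 480 and 487 CPM in KG1A PBS and 485 and 490 CPM in KG1A dG (0.01 ± 0.03, adjusted p = 0.817), and rose in U937 from 361 and 358 to 492 and 476 CPM (0.43 ± 0.03). SSR3 fell in KG1A from 223 and 224 to 180 and 183 CPM (-0.30 ± 0.03) and rose in U937 from 260 and 264 to 288 and 277 CPM (0.11 ± 0.03, adjusted p = 0.00484). SSR2 changed by 0.10 ± 0.04 in KG1A (adjusted p = 0.0382) and 0.19 ± 0.04 in U937. The complex thus had a member called higher, a member called lower and a member not called in KG1A. The KG1A call of SSR2 was lost under 13 of the 17 alternatives (adjusted p = 0.0655 to 0.775), among them leaving out replicate 1 or replicate 2 of KG1A PBS (adjusted p = 0.153 and 0.112), replicate 1 of KG1A dG (adjusted p = 0.411) or replicate 1 or replicate 2 of U937 dG (adjusted p = 0.538 and 0.541). The SSR3 call in U937 was lost with library size alone (adjusted p = 0.356) and without replicate 1 of U937 PBS (0.09, adjusted p = 0.0523).

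SEC24D, which selects cargo for the COPII vesicles that leave the ER, went from 51.3 and 49.2 to 45.8 and 44.7 CPM in KG1A (-0.15 ± 0.05, adjusted p = 0.00946). It rose in U937 from 211 and 204 to 385 and 377 CPM (0.88 ± 0.03, adjusted p = 1.43e-22), the largest change of its role. The KG1A call was lost without replicate 1 of KG1A PBS (-0.12, adjusted p = 0.0927) and without replicate 2 of KG1A dG (-0.13, adjusted p = 0.0673).

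Set side by side, 16 of the 36 genes fell in KG1A and rose in U937. They were HSPA5, HSP90B1, DNAJB11, CALR, CANX, PDIA3, PDIA4, PDIA6, SDF2L1, HYOU1, CRELD2, EDEM2, SEC61A1, SEC61B, SSR3 and SEC24D. That is 44.4% of the genes, against 2.51% of all genes tested. Not kept under every alternative were the KG1A calls of CALR, CRELD2 and SEC24D and the U937 calls of SDF2L1, SEC61B and SSR3. Another 8 genes rose in both lines (22.2%, against 15.4% of all genes): EIF2AK3, DNAJB9, DNAJC3, HERPUD1, EDEM3, SEL1L, SYVN1 and SSR2. ATF6, CREB3L2, EDEM1 and DERL3 (11.1%) were called higher in KG1A and not called in U937, as were 9.26% of all genes. Another 7 genes (19.4%) were called in U937 alone, where they rose, against 14.6% of all genes, and SEC61G (2.78%) fell in KG1A and was not called in U937, against 3.96%. These last 3 shares are near those of all genes.

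The test of the difference between the lines called 33 of the 36 genes, against 44.1% of all genes. The effect was higher in U937 for 30, and lower for 3, namely ATF6, CREB3L2 and EDEM1. EIF2AK3, DERL3 and SSR2 were not called, although SSR2 was called higher in U937 under 8 of the 16 alternatives. These were DESeq2's size factors, the DESeq2 Wald test, no filter on low counts and all 3 RPKM fits (0.19 to 0.22). The others were without replicate 1 or replicate 2 of U937 dG (0.18 and 0.26). The difference was at least 1.5-fold toward U937 in 20 genes and toward KG1A in 2, against 7.96% and 13.4% of all genes (21.4% in all). Other scalings and filters raised the median difference of all genes by up to 0.12 on the log2 scale, and the counts among the 36 were then 31 higher and 2 or 3 lower. With DESeq2's size factors the split of all genes went from 3230 higher and 4841 lower to 4021 and 3898. Across the 36 genes Pearson's r between the 2 lines' effects was 0.03, across the 15 chaperones 0.44 and across all 18314 genes 0.25, given as descriptions over genes that share the same 8 libraries. Within the chaperones, then, DNAJB9 and DNAJC3 ranked high in both lines, while HSPA5 ranked second in U937 and last but for SDF2L1 in KG1A.

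**Figure D4:**
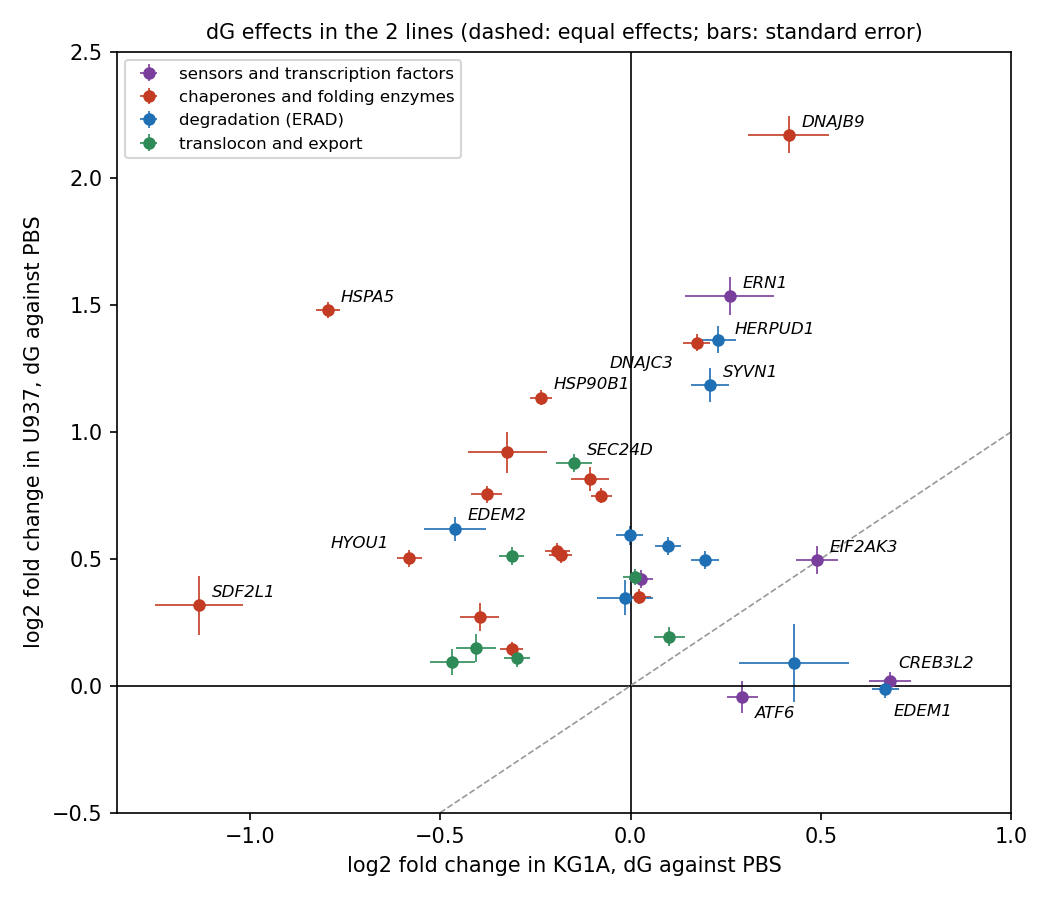
Log2 fold change of dG against PBS in KG1A (horizontal) and U937 (vertical) for the 36 genes, coloured by role, with bars of 1 standard error. Of the 36, 32 lie above the dashed line of equal effects, HSPA5 and SDF2L1 lie to the upper left, and CREB3L2, EDEM1 and ATF6 lie below the line.

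The shares of all counts, which use no scaling factor, moved likewise. The 36 genes took 0.893 and 0.904% of the counts in KG1A PBS and 0.796 and 0.785% in KG1A dG. In U937 they took 1.01 and 1.00% in PBS and 1.45 and 1.42% in dG. The chaperones made up most of this, at 0.560 and 0.567% falling to 0.464 and 0.458% in KG1A and 0.747 and 0.744% going to 1.12 and 1.09% in U937. Degradation genes went from 0.0884 and 0.0894% to 0.0993 and 0.0980% in KG1A, and from 0.0729 and 0.0726% to 0.0980 and 0.0990% in U937, so that both lines ended close together. In bulk RNA, a change in the amount per cell cannot be told apart from a change in the mix of cells.

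**Figure D5:**
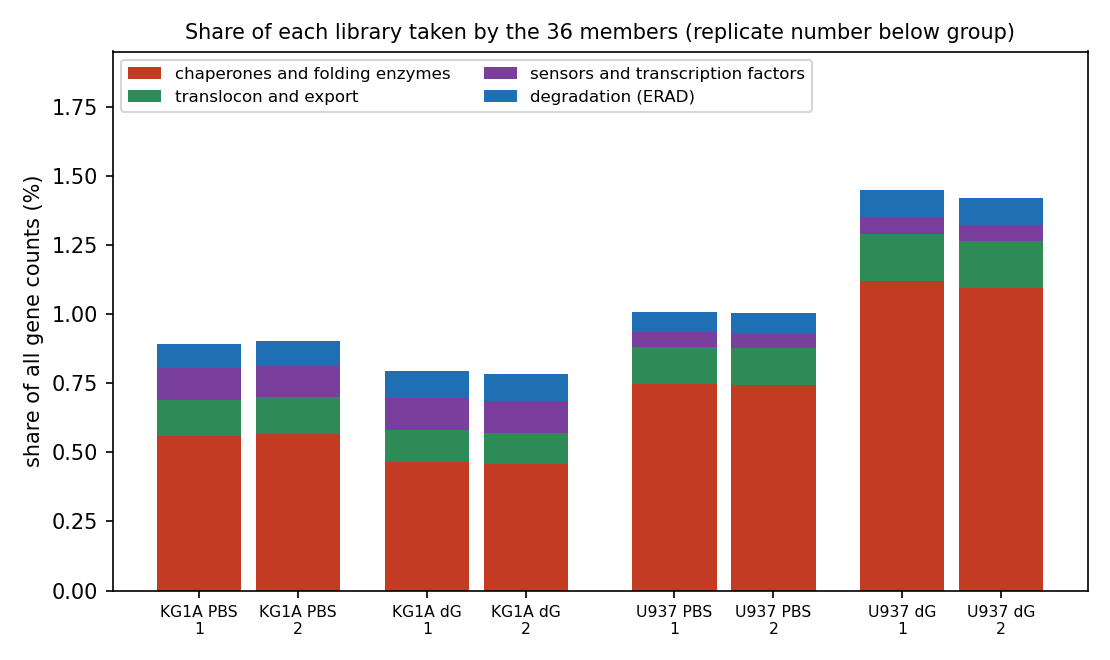
Share of each library's gene counts taken by the 36 genes (vertical, in %), stacked by role, for the 8 libraries. The stacks are between 0.785 and 0.904% in KG1A, about 1% in U937 PBS and 1.42 to 1.45% in U937 dG, and the chaperone layer is the thickest in every library.

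The promoter elements shown at the start can be set beside these values. RefSeq windows from 250 bases before to 50 after the start were matched for 32 of the 36 genes, and SEC24D, DERL1, DERL3 and PDIA3 had none. Searched on both strands, the ERSE (CCAAT, 9 free bases, CCACG) was found in 27 of 35116 windows (0.0769%), among them windows of CALR, CANX, CRELD2, HSP90B1, HSPA5, PDIA6 and XBP1. The ERSE-II (ATTGG, 1 free base, CCACG) was found in 19 windows (0.0541%), among them those of HERPUD1, HYOU1 and SDF2L1. The UPR element core TGACGTGG was found in 256 windows (0.729%), with HYOU1, where it overlaps an ERSE-II copy, and SSR3 among them, and the cyclic AMP element TGACGTCA in 649 (1.85%), with CREB3L2 among them.

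The 10 genes with an exact ERSE or ERSE-II in the window all rose in U937, with a median of 0.63, while in KG1A 8 fell, 1 (HERPUD1) rose and 1 (XBP1) was not called, with a median of -0.27. Of the 22 genes with a window but no exact copy, 18 rose and 0 fell in U937 (median 0.46), and 10 rose and 7 fell in KG1A (median 0.06). Among all genes tested, 32.4% were called higher and 31.5% lower in U937, and 29.6% higher and 19.6% lower in KG1A. Genes outside the members with an exact copy were not compared here. Whether the element has a part in the split was not tested. DNAJB9, with the largest rise in U937, and EDEM1, which rose in KG1A, were among the 22. A match is a description of these letters and says nothing of binding.

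A wider list of 88 ER genes outside the 36 covered other folding, degradation, signalling, translocation and export functions, and 87 of them were tested. In U937, 58 were higher and 17 lower (median 0.28), against 32.4% and 31.5% of all genes. In KG1A, 36 were higher and 25 lower (median 0.08), against 29.6% and 19.6%. The difference between the lines was called higher in U937 for 53 and lower for 14, against 17.6% and 26.4%. The class counts that follow are to be read against the same shares. Of the 12 COPII export genes, 11 rose in U937, and 4 rose and 3 fell in KG1A. Of the 20 other folding genes, 15 rose and 2 fell in U937, and 10 rose and 4 fell in KG1A. Of the 17 other degradation genes, 12 rose and 4 fell in U937, and 7 rose and 5 fell in KG1A. Of the 27 translocation and glycosylation genes, 13 rose and 8 fell in U937, and 7 rose and 12 fell in KG1A. Of the 11 signalling genes tested, 7 rose and 2 fell in U937, and 8 rose and 1 fell in KG1A.

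By class, the called genes with the largest rise and the largest fall in each line were as follows. Among folding genes, UGGT2, a glycoprotein folding checkpoint enzyme, rose by 0.66 ± 0.06 and FKBP11, a prolyl isomerase, fell by 0.77 ± 0.09 in KG1A, while ERO1B, an oxidase that recharges the disulfide isomerases, rose by 1.24 ± 0.06 and DNAJC10 fell by 0.42 ± 0.04 in U937. ERO1B was also called higher in KG1A (0.49 ± 0.10). Among degradation genes, FAM8A1 rose by 0.69 ± 0.05 and the ATPase VCP fell by 0.57 ± 0.03 in KG1A, and UFD1, a partner of VCP, rose by 1.22 ± 0.05 and NGLY1 fell by 0.49 ± 0.04 in U937. VCP and UFD1 moved in the same direction in the other line too, VCP by -0.38 ± 0.03 in U937 and UFD1 by 0.29 ± 0.05 in KG1A.

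Among signalling genes, CREB3L4 rose by 0.71 ± 0.12 and CREB3 fell by 0.28 ± 0.08 in KG1A. In U937 PPP1R15A (GADD34), which directs the phosphatase that reverses PERK's mark on eIF2 alpha, rose from 52.8 ± 0.24 to 251 ± 1.8 CPM (SD, n = 2), a log2 change of 2.25 ± 0.04, and CREB3L4 fell by 0.25 ± 0.09. PPP1R15A was called higher in KG1A as well (0.39 ± 0.07). Among translocation genes, SEC11A rose by 0.40 ± 0.04 in KG1A and SEC61A2 by 0.97 ± 0.11 in U937, and the signal peptidase subunit SEC11C had the largest fall in both lines (-1.08 ± 0.08 and -0.80 ± 0.08). Among COPII genes, SEC24B rose by 0.16 ± 0.04 in KG1A and SEC23A by 0.78 ± 0.04 in U937, and PREB had the largest fall in both (-0.50 ± 0.05 and -0.13 ± 0.05). The PERK-pathway gene DDIT3 (CHOP), named here after its values were seen, stood at 2.08 and 2.84 CPM in KG1A PBS, 3.31 and 2.5 CPM in KG1A dG, 15.1 and 14.0 CPM in U937 PBS and 64.6 and 61.2 CPM in U937 dG. It rose in U937 by 2.11 ± 0.07 and was not called in KG1A (0.23 ± 0.18, adjusted p = 0.330), with a called difference of 1.88 ± 0.20. DDIT3 had a mean log2 CPM of 1.45 in KG1A, under the 2 set for the other named genes. ATF4 (0.15 ± 0.04 in KG1A, 0.44 ± 0.04 in U937) and TRIB3 (0.35 ± 0.12 and 0.41 ± 0.05) were called higher in both lines. For TRIB3 the difference was not called (0.06 ± 0.14). Of the 11 signalling genes tested, the difference was called higher in U937 for 5 and lower for 3, against 17.6% and 26.4% of all genes.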

How the data were processed

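Per the labels' protocols, total RNA from KG1A and U937 cells went through an mRNA library kit. The submitters' processing notes name bcl2fastq 2.18.0.12, TopHat2, HTSeq 0.11.2 and the build hg38/GRCh38; strand setting and annotation release are not given in the sources used here. The authors deposited raw counts per gene, and RPKM values that equal those counts divided by exon length and by 1 factor per library.

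Counts were fitted in edgeR 4.0.16 (R 4.3.3; filterByExpr, TMM, quasi-likelihood F test, 1 mean per group over 8 libraries), which tested 18314 of 57992 genes. The quasi-likelihood fit had 4 residual degrees of freedom per gene and a common biological coefficient of variation of 2.51%. Spread pooled over genes added a median of 31.0 prior degrees of freedom. Standard errors are the log2 change divided by the root of F. At 21053724 to 31135338 counts per library, 1 count was worth 0.0314 to 0.0485 CPM. In simulated data for KG1A dG against PBS (15861 and 15859 genes), 91% of 200 genes changed 1.5-fold and 98% of those changed 2-fold were recovered. False calls made up 2.67% and 4.39% of calls. The changed genes were drawn from well-counted genes, and all groups had the KG1A PBS profile. In the data 49.1% of genes were called in KG1A, so these rates do not describe recovery there.

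Groups were read from sample titles. Replicates of a group differed by more than sampling noise (chi-square per gene 1.80 to 2.21), so none was counted as a repeat. The members and gene lists were chosen with earlier results of these data known. All 36 members are named. Of 88 other genes of the pathway, the named ones are those called with the largest rise and fall per class and line (mean log2 CPM of at least 2). DDIT3, ATF4, TRIB3 and SSR4 are named outside that rule. WFS1 was not tested. UFD1, SELENOS and SELENOK were matched through older symbols.

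Alternatives were DESeq2 1.42.0 (size factors, Wald test), library size alone, no filter, each line alone, limma 3.58.1 on log2(RPKM + 1) and log2(RPKM + 0.1), a replicate block, and leaving out each library. Exon overlap was computed from GENCODE 29 and promoter windows came from RefSeq GRCh38.p14.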

Additional observations from a re-analysis of the deposited data

Results flagged for a closer look

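In 33 of the 36 genes the effect of dG differed between the lines by the interaction test in edgeR; values are the effect in U937 minus that in KG1A, on the log2 scale. Among sensors and transcription factors, the effect was higher in U937 for ERN1 (1.27) and XBP1 (0.39) and lower for CREB3L2 (-0.66) and ATF6 (-0.34). For the 15 chaperones and folding enzymes it was higher in U937 throughout, in HSPA5 (2.28), DNAJB9 (1.75), SDF2L1 (1.45), HSP90B1 (1.37), CRELD2 (1.25), DNAJC3 (1.18), PDIA4 (1.13), HYOU1 (1.08), MANF (0.92), CALR (0.83), PDIA3 (0.72), PDIA6 (0.70), DNAJB11 (0.67), CANX (0.46) and P4HB (0.33). Among degradation genes it was higher in U937 for HERPUD1 (1.13), EDEM2 (1.08), SYVN1 (0.98), DERL1 (0.59), SEL1L (0.45), DERL2 (0.36) and EDEM3 (0.30), and lower for EDEM1 (-0.68). Among translocon and export genes it was higher in U937 for SEC24D (1.03), SEC61A1 (0.83), SEC61G (0.56), SEC61B (0.55), SSR1 (0.42) and SSR3 (0.41).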

How the results depend on the processing

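Each comparison was repeated under 16 or 17 alternatives. The number of the 36 genes called ranged from 23 to 29 in KG1A (29 as reported), 29 to 33 in U937 (31), 33 to 34 for the difference between the lines (33) and 29 to 31 between the lines in PBS (31), so no total of calls moved by more than 1.5 times and no called direction reversed. Calls kept under every alternative were 6 of 12 higher and 14 of 17 lower in KG1A, 28 of 31 higher in U937, and 30 of 30 higher and 2 of 3 lower for the difference; the exceptions are given with the genes, except that the ATF6 difference also missed the threshold on log2(RPKM + 0.1) (adjusted p = 0.0503). The number called higher in KG1A did move by more than 1.5 times: 12 higher and 17 lower members became 10 and 18 with library size alone, where scaling is the single change, 8 and 18 on log2 RPKM with limma, which changes scaling, unit and test at once, and 6 and 17 where the filter was dropped too. With library size alone, the split of all genes went from 5413 higher and 3581 lower to 4584 and 4435. The KG1A median of all genes shifted by -0.04 with library size alone, no filter, the RPKM fits and without either U937 dG library. It shifted by -0.05 with each line fitted alone. For KG1A calls these alternatives are therefore not separate checks. The replicate numbers did not pair the libraries (correlations of deviations -0.05 to 0.01), and a replicate block gave 12 higher and 17 lower in KG1A, 31 and 0 in U937, and 30 and 3 for the difference, the same counts as without it. With 2 libraries a group, leaving 1 out assumes that the lone library varies like the other groups. Depth limits SDF2L1, DNAJB9, CRELD2, DERL3 and ERN1 most, which had the lowest counts.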
